A study of Mus musculus with 6 samples.

Results

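*Col2a1*, *Col9a1*, *Col9a2* and *Sox9* are described here in cells sorted from mouse mammary tumors. *Col2a1* encodes the chain of type II collagen, *Col9a1* and *Col9a2* encode chains of type IX collagen, and *Sox9* encodes a transcription factor of cartilage cells. These 4 genes, of 14897 in the authors' table, were found by their symbols, and they had been chosen by their RPKM (reads per unit of gene length, scaled to the size of the library) in these same libraries. Their levels and differences are therefore a description, with no test. The tumors arose spontaneously in mice of strain FVBN that carry the polyoma virus middle T oncogene under the MMTV promoter, which is active mainly in mammary epithelium, and every group shares this oncogene. RNA was sequenced from 3 sorted populations of each of 2 tumors, which were bulk cells (P0, the cells left after both other gates, called non-CSC in the labels), cells sorted as CD29hi CD61+ BCSCs (P1), and cells sorted as ALDH+ BCSCs (P2), where BCSC stands for breast cancer stem cell. The labels give no age of the mice, no treatment, and leave unsaid if the tumors grew in 1 mouse or in 2. Each population of a tumor is 1 library. A gap between the tumors therefore cannot be told apart from a gap between sorts or library preparations.

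Cartilage is built on thin fibrils in which type II collagen, a trimer of identical chains, is the main component. Type XI collagen sits in the core of the fibril, and type IX collagen, which joins 1 chain each of *Col9a1*, *Col9a2* and *Col9a3*, is attached to its surface. SOX9 is the transcription factor that cartilage cells need to form, and together with SOX5 and SOX6 it switches on the genes of these collagens and of aggrecan. SOX9 is also made outside cartilage, and in the mouse mammary gland it is found in luminal progenitor cells and acts with SNAI2 (Slug) in the stem cell state.

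The promoters of the type IX collagen genes are shown since *Col9a1* and *Col9a2* encode chains of 1 protein but differ in the sequence that precedes them. RefSeq (build GRCm38.p6) gave entries for 2 of the 4 genes, with 2 start sites of *Col9a1* and 1 of *Col9a2*. The upstream start of *Col9a1* follows chr1:24177360-24177609, the downstream start follows chr1:24194953-24195202, and *Col9a2* follows chr4:121039316-121039565, all on the forward strand. The 250 bases before each start are printed 5′ to 3′, with matches to the core promoter box TATAAA, the box GGGCGG bound by factors of the Sp family, the cores ACAAAG as well as ACAATG of the kind Sox proteins bind, and the E-box CAGCTG on either strand in capitals.
Col9a1 upstream start: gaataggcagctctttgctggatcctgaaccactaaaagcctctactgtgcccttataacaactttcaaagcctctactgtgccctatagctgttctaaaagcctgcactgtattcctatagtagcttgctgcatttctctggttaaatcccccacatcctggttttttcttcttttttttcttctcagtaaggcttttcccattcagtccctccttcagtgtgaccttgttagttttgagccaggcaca
Col9a1 downstream start: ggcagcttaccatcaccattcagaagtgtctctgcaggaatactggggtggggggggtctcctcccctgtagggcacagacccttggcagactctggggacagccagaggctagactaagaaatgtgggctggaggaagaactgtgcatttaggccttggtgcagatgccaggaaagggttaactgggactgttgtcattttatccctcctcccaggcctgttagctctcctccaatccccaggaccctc
Col9a2: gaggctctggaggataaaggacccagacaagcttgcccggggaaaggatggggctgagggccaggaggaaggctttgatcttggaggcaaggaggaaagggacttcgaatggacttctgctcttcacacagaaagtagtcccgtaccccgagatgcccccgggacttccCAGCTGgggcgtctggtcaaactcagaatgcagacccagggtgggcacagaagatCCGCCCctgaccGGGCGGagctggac

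The *Col9a2* sequence held GGGCGG on both strands, beginning 14 bases (same strand) and 26 bases (opposite strand) before the start, and CAGCTG 81 bases before it. It had 9 CpG dinucleotides and a GC content of 60.4%. Neither *Col9a1* sequence held any of the 5 motifs or a CpG, and their GC contents were 43.6% upstream and 56.0% downstream, against a median of 52.4% over 32851 promoters of the same length. Of those promoters 32.7% held GGGCGG on either strand, 13.0% held the motif CAGCTG, 12.4% the motif TATAAA, 16.5% the motif ACAAAG and 10.7% the motif ACAATG. A match is a description of the letters only, and the RPKM do not show which start of *Col9a1* was used.

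Pairs of values are given with tumor 1 first and tumor 2 second. The libraries held 19037070 to 48008802 reads in genes. Those of tumor 1 had 1947 to 3904 genes without a read, against 360 to 759 in tumor 2. Luminal keratin *Krt8* stood at 3050 to 5193 RPKM in all 6 libraries, *Krt5* of basal cells was highest in P1 (128 and 48.8 RPKM in tumors 1 and 2, at most 8.87 elsewhere), and *Aldh1a3*, an aldehyde dehydrogenase, was highest within each tumor in P2 (693 and 182 RPKM). The mRNAs of the P1 gate's own surface proteins did not follow the gate in both tumors, since *Itgb1* (CD29) was at 182 and 251 RPKM in bulk cells and 258 and 217 in P1, and *Itgb3* (CD61) at 17.6 and 9.29 RPKM in bulk cells and 13.2 and 13.9 in P1. In bulk RNA, fewer cells of a type and less RNA per cell cannot be told apart.

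*Col2a1* (Entrez gene 12824) was the least abundant of the 4 genes and the one that differed most between the sorted populations. It was at 9.96 RPKM in P1 of tumor 1 and 5.38 in P1 of tumor 2, from 2456 and 596 reads. In bulk cells it was at 3.05 and 0.992 RPKM (567 and 99 reads), and in P2 at 0 and 0.419 RPKM (0 and 41 reads). Both tumors thus had the order P1, P0, P2 from high to low, and both P1 values lay above all other values. Within a tumor, P1 was 3.27-fold above P0 in tumor 1 (95% counting interval 2.98 to 3.58) and 5.42-fold above it in tumor 2 (4.38 to 6.71). By counting error alone, a count of 0 allows 3 reads (0.0246 RPKM). With P2 of tumor 1 set there, P1 was at least 405-fold above it, and in tumor 2 P1 was 12.8-fold above P2 (9.35 to 17.6). With the same setting P2 was at least 124-fold lower than P0 in tumor 1, and it was 2.36-fold lower in tumor 2. The tumors thus shared the direction but not the size. The intervals and these bounds take in only the error of counting, as several reads can come from 1 molecule. They do not cover the loss of a gene from a library, which was frequent in P2 of tumor 1 (below).

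**Figure D1:**
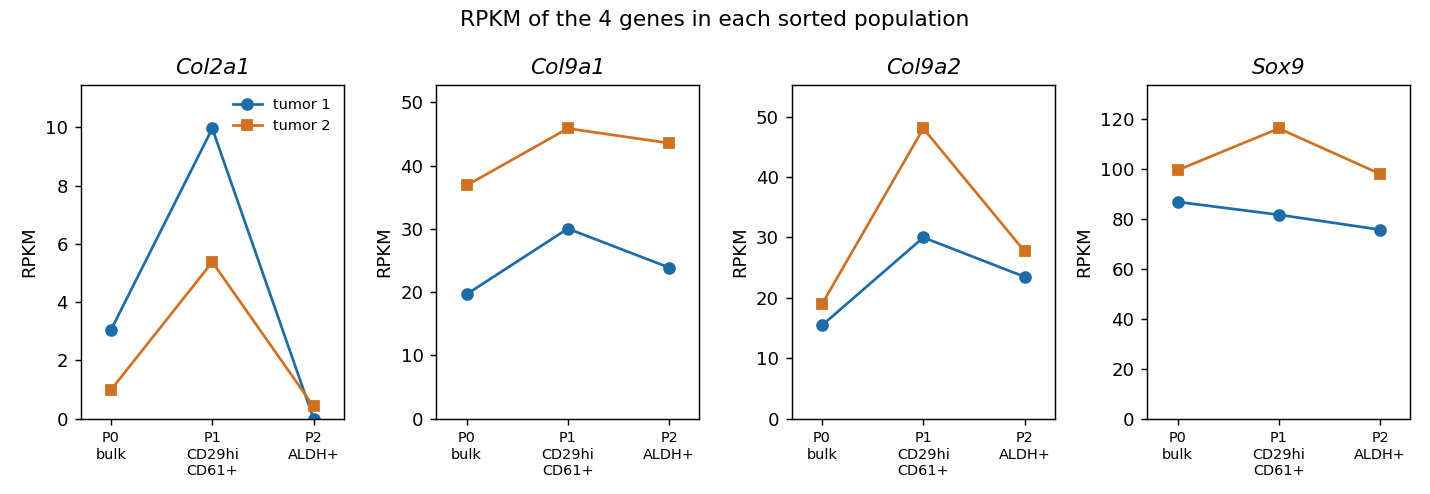
RPKM (vertical axes, from 0, a separate scale in each panel) of the 4 genes in P0, P1 and P2. Each point is 1 library and a line joins the libraries of 1 tumor. *Col2a1* peaked in P1 at 9.96 and 5.38 RPKM, and *Sox9* stood between 75.7 and 116 RPKM throughout.

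P2 of tumor 1, where *Col2a1* reads were missing, had 3904 genes without a read, against 759 in P2 of tumor 2. It held more reads in genes, 23773850 against 19037070. Of 1767 genes within 1.5-fold of the *Col2a1* level in P0 of tumor 1, 22.5% had no read in P2 of tumor 1 and 2.55% had none in P2 of tumor 2. Of 2871 genes that close to its level in P1 of tumor 1, 7.87% had none in P2 of tumor 1. How far this loss of genes enters the *Col2a1* values was not tested. In tumor 2, whose P2 library had 41 *Col2a1* reads, the order of the populations was the same. The log2(RPKM + 1) scale understates changes of low genes. On it *Col2a1* had a mean difference of 1.56 ± 0.71 (standard error from the limma model, n = 2 tumors) for P1 against P0. It was -1.25 ± 0.71 for P2 against P0 (-0.74 without P0 of tumor 1) and 2.81 ± 0.71 for P1 against P2. The model had no term for the tumor, so these and later standard errors also take in the gap between the tumors.

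*Col9a1* (Entrez gene 12839), the chain that carries the globular N-terminal domain of type IX collagen, had similar levels in the populations of a tumor and was higher in tumor 2. Tumor 1 had 19.7 RPKM in bulk cells, 30.0 in P1 and 23.9 in P2, and tumor 2 had 36.9, 45.9 and 43.6 RPKM. The order was P1, P2, P0 in both tumors, with tumor 2 1.53 to 1.88 times higher in every population, so the populations overlapped when the tumors were pooled. P1 was 1.53-fold (counting interval 1.46 to 1.60) and 1.24-fold (1.19 to 1.30) above P0, and P2 1.22-fold and 1.18-fold above P0, in tumors 1 and 2. Between P1 and P2 the folds were 1.26 and 1.05. Within tumors 1 and 2 the log2(RPKM + 1) differences of *Col9a1* were 0.59 and 0.31 for P1 against P0. For P2 against P0 they were 0.27 and 0.23. The means of 0.45 ± 0.46 and 0.25 ± 0.46 did not exceed the standard error, which takes in the gap between the tumors. Without P0 of tumor 1, which leaves P0 of tumor 2 to compare with both tumors, these means were 0.01 and -0.19.

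*Col9a2* (Entrez gene 12840), which encodes another chain of the same trimer, was higher in both stem cell populations than in bulk cells. It stood at 15.5 and 19.0 RPKM in bulk cells, at 30.0 and 48.0 RPKM in P1 and at 23.5 and 27.7 RPKM in P2. No value overlapped between the populations, and each tumor had the order P1, P2, P0. How many of all genes separate in this way was not counted, here or for *Col2a1*. P1 was 1.94-fold (1.83 to 2.06) and 2.53-fold (2.36 to 2.72) above P0, and P2 was 1.52-fold and 1.46-fold above P0. P1 exceeded P2 1.28-fold in tumor 1 and 1.73-fold in tumor 2. The mean log2(RPKM + 1) difference of *Col9a2* was 1.10 ± 0.38 for P1 against P0, 0.55 ± 0.38 for P2 against P0 and 0.56 ± 0.38 for P1 against P2. The last of these was 0.23 without P1 of tumor 2 and 0.89 without P1 of tumor 1.

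*Col9a3*, the remaining chain, completes the picture of the trimer. Its level was 21.6 and 24.7 RPKM in bulk cells, 27.8 and 57.2 in P1, and 13.0 and 26.0 in P2, so P1 was the highest population of each tumor while P2 lay below P0 in tumor 1 and close to it in tumor 2. Summed over the 3 chains, type IX collagen stood at 56.7 and 80.5 RPKM in bulk cells, at 87.9 and 151 in P1 and 60.4 and 97.2 in P2. The share of *Col9a2* in this sum was 27.3% and 23.6% in bulk cells, 34.1% and 31.8% in P1, and 38.9% and 28.5% in P2. The share of *Col9a2* was thus higher in P1 and P2 than in P0 of each tumor, and *Col9a3* had its lowest share in P2 of each tumor (21.5% and 26.7%).

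*Sox9* (Entrez gene 20682) was abundant and nearly level across the populations. It was at 86.9 and 99.6 RPKM in bulk cells, at 81.7 and 116 RPKM in P1 and at 75.7 and 98.1 RPKM in P2, from 7467 to 16271 reads. These levels stood above 93.9% to 96.4% of all genes of the same library. P0 was the highest population in tumor 1 and P1 in tumor 2, P2 was the lowest in both, and the populations overlapped. The fold between P1 and P0 was 0.941 (0.919 to 0.963) in tumor 1 and 1.17 (1.13 to 1.20) in tumor 2, and that between P2 and P0 was 0.872 and 0.985. The mean log2(RPKM + 1) difference of *Sox9* was 0.07 ± 0.33 for P1 against P0, -0.11 ± 0.33 for P2 against P0 and 0.18 ± 0.33 for P1 against P2, all within the standard error. Tumor 2 had more *Sox9* than tumor 1 in each population, as it had for *Col9a1* and *Col9a2*, whereas *Col2a1* was higher in tumor 1 in P0 and P1.

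**Figure D2:**
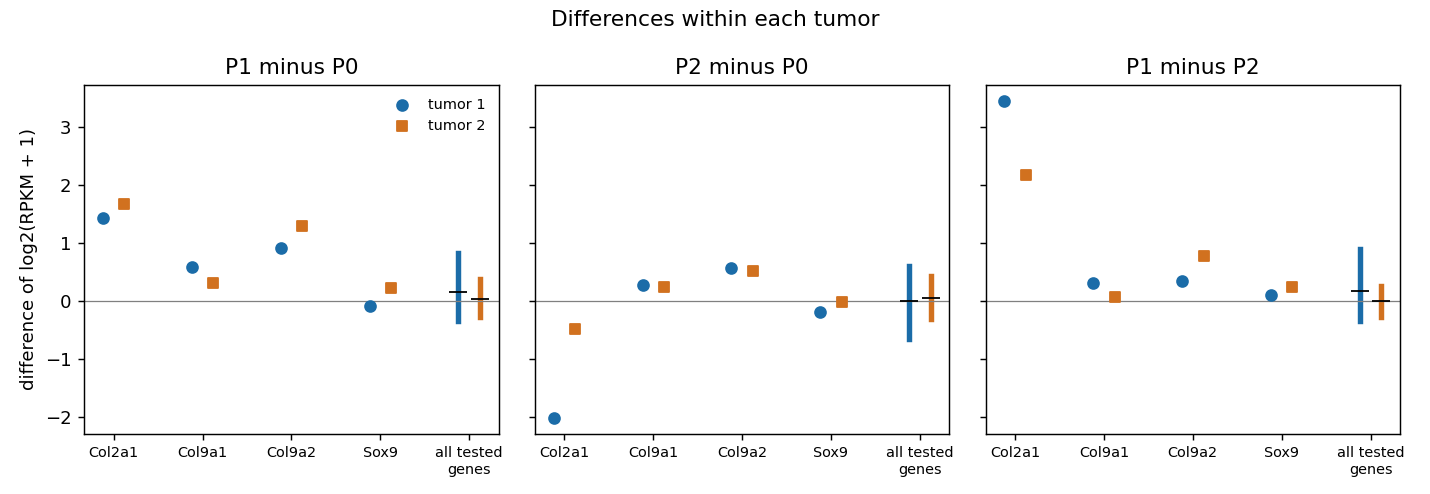
Difference of log2(RPKM + 1) within each tumor (vertical axis) for P1 minus P0, P2 minus P0 and P1 minus P2. Points are the 4 genes, with circles for tumor 1 and squares for tumor 2, and the bars at the right of each panel span the range from the lower to the upper quartile of all 12512 tested genes with the median as a line. *Col2a1* lay above the bars in P1 minus P0 (1.44 and 1.68) and below them in P2 minus P0 for both tumors, and *Sox9* lay inside the bars in every panel.

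The amount of *Sox9* and the amounts of the collagen genes did not keep a fixed ratio. There were 5.62 and 5.25 times as many *Sox9* as *Col9a2* RPKM in P0, 2.72 and 2.42 times in P1, and 3.22 and 3.54 times in P2, so the ratio was lowest in P1 of each tumor. Over the 6 libraries, Pearson's r on log2(RPKM + 1) was 0.79 between *Sox9* and *Col9a1*, 0.51 between *Sox9* and *Col9a2*, 0.19 between *Sox9* and *Col2a1*, 0.70 between *Col9a1* and *Col9a2*, 0.38 between *Col2a1* and *Col9a2* and 0.05 between *Col2a1* and *Col9a1*. The 6 points share 2 tumors and 3 sorts, and the values are given as a description.

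Among all tested genes, the difference of *Col2a1* between P1 and P0 was above that of 87.0% of genes in tumor 1 and 99.2% in tumor 2, and that of *Col9a2* above 77.3% and 97.8%. For P2 against P0, *Col2a1* lay above 6.31% and 15.1% of genes and *Col9a2* above 73.9% and 79.8%. In limma over the 12512 tested genes (2 or more libraries with 1 RPKM or more, and 1 model for all 6 libraries), 0 of the 4 genes passed an adjusted p (Benjamini-Hochberg) of 0.05 in P1 against P0, P2 against P0 or P1 against P2, where 0.0% of all genes passed in each. All 4 genes met the filter, *Col2a1* in 3 libraries, namely P0 of tumor 1 and both of P1. At an unadjusted p of 0.05, 1.89% of all genes (237) were called in P1 against P0, with *Col9a2* as the member among them, 3.91% (489) in P2 against P0, with 0 of the 4, and 2.49% (312) in P1 against P2, with *Col2a1*. Since these contrasts chose the 4 genes, nothing is read from their ranks among all genes or from their counts. Both contrasts with bulk cells use the same P0 libraries. With the tumor as a replicate block, 0.0% of genes passed the adjusted threshold in P1 against P0 and in P1 against P2, and 3 genes (0.024%) in P2 against P0, none of them among the 4. On whole reads recovered from the RPKM, limma voom called 0.0719%, 0.00799% and 0.0559% of genes in these comparisons in turn, again none of the 4.

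The tested genes of other cartilage collagens stood higher in P1 than in bulk cells in both tumors. Of 9 listed genes 7 were in the table and 6 were tested. All 6 were higher in P1 in each tumor, with a median log2(RPKM + 1) difference of 1.06 against 0.12 over all tested genes. The share of all tested genes that were higher in both tumors was not counted, so this and later such counts stand without it. *Col14a1*, a fibril-associated collagen that missed the filter, was at 1.36 RPKM in bulk cells and 0 in P1 of tumor 1 and at 0.231 and 0.668 RPKM in those of tumor 2. By limma 0 of the 6 passed the adjusted p and 2 the unadjusted p, against the 1.89% of all genes given above. *Col11a1*, a chain of the type XI collagen of the fibril core, was at 8.90 and 7.17 RPKM in bulk cells, 26.0 and 12.1 in P1, and 14.4 and 9.40 in P2. *Col11a2*, another chain of type XI collagen, was low throughout, at 0 and 0.853 RPKM in bulk cells, 0.754 and 3.62 in P1 and 0.615 and 1.05 in P2. Thus the genes for types II, IX and XI collagen all had their highest level of each tumor in P1, at very unequal abundance.

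The listed genes with an unadjusted p under 0.05 were *Col16a1* and *Col12a1*, which encode fibril-associated collagens that are not limited to cartilage. *Col16a1* stood at 19.8 and 13.9 RPKM in bulk cells, 37.4 and 38.1 in P1 and 33.9 and 22.7 in P2. *Col12a1* was at 2.42 and 5.81 RPKM in bulk cells, 10.2 and 11.6 in P1 and 11.5 and 20.8 in P2, and unlike *Col2a1* it was highest in P2 of each tumor. For P2 against P0 the list had a median of 0.45 against 0.00 over all tested genes, with 5 of 6 genes higher in both tumors and *Col12a1* alone past the unadjusted p.

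Aggrecan and COMP, matrix proteins that surround these collagens in cartilage, had few or no reads. *Acan*, which encodes aggrecan, the main proteoglycan of cartilage, was at 0 RPKM in 4 libraries and at 0.0756 and 0.121 RPKM in P1 and P2 of tumor 2. *Comp*, a protein that binds collagen fibrils in cartilage, was at 0 in all libraries of tumor 1 and at 0.36, 2.69 and 1.23 RPKM in bulk cells, P1 and P2 of tumor 2. *Acan*, a defining gene of cartilage cells, was thus at or near 0 in all 6 libraries, and the collagens are named here by their genes and not as a sign of a cell type. The summed level of the 7 chondrocyte markers in the table, which include *Col2a1* and *Col9a1* themselves, was 27.8 and 60.4 RPKM in bulk cells, 66.7 and 113 in P1 and 28.0 and 80.4 in P2. Of these 7 markers 4 had no reads in P0 and P2 of tumor 1, and 0 lacked reads in P1 and P2 of tumor 2.

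Some smaller matrix genes had their highest levels in P1, as *Col2a1* did. Of 24 listed cartilage matrix proteins 15 were in the table and 13 were tested, 6 of which were higher and 1 lower in P1 than in P0 in both tumors, with a median difference of 0.80 on the log2(RPKM + 1) scale. This median was 0.0 when the P1 library of tumor 2 was left out and 1.66 when that of tumor 1 was. In limma 0 passed the adjusted p and 2 the unadjusted p, against 1.89% of all genes. Those were *Cnmd* (listed as *Lect1*), which encodes chondromodulin, and *Chadl*, which encodes a chondroadherin-like protein. *Cnmd* was at 0 in both P0 libraries, 3.19 and 3.42 RPKM in P1 and 0 and 0.914 in P2, and *Chadl* was at 0 and 1.90 RPKM in bulk cells, 5.41 and 5.22 in P1 and 0 and 1.67 in P2. *Chad*, chondroadherin, a cartilage protein that binds cells, was more abundant, at 5.05 and 21.3 RPKM in bulk cells, 22.8 and 52.2 in P1 and 3.49 and 33.1 in P2. Its difference between P1 and P0 did not pass the unadjusted p. In P2 against P0, 1 gene of the list passed the unadjusted p (3.91% of all genes did), *Cilp* of the cartilage intermediate layer, which was at 0 in both P0 libraries, 0 and 2.04 RPKM in P1 and 2.56 and 8.03 RPKM in P2.

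**Figure D3:**
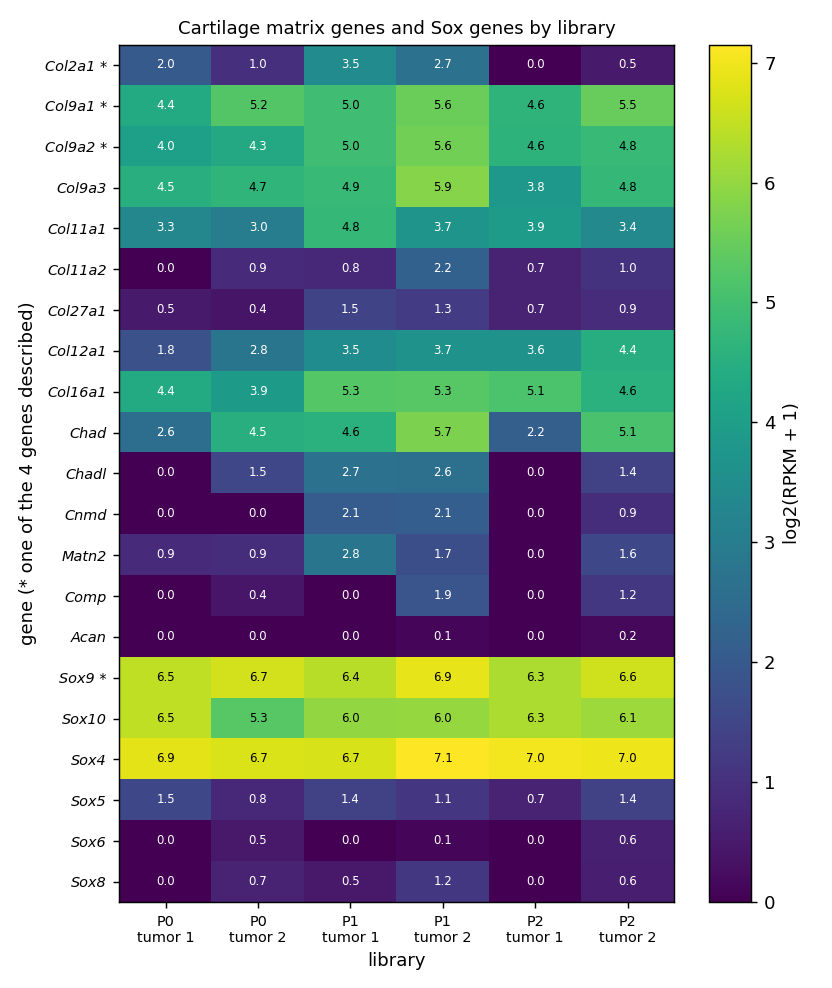
Levels of cartilage matrix and *Sox* genes as log2(RPKM + 1) (color scale and printed value) in the 6 libraries (columns). An asterisk marks the 4 genes described, and *Col2a1*, *Chadl* and *Cnmd* were highest in the P1 columns while *Acan* and *Sox6* were near 0 in all columns.

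The partners of SOX9 in cartilage were scarce where *Sox9* was abundant. *Sox5* was at 1.91 and 0.739 RPKM in bulk cells, 1.60 and 1.20 in P1 and 0.599 and 1.59 in P2. *Sox6* had no reads in tumor 1 and at most 0.545 RPKM in tumor 2, and *Sox8*, a close relative of *Sox9*, had at most 1.24 RPKM. *Sox10*, the other close relative, which is known from neural crest and mammary cells, was of the same order as *Sox9*, at 87.5 and 38.1 RPKM in bulk cells, 62.4 and 63.6 in P1 and 75.8 and 67.6 in P2. The *Sox* family and other regulators of cartilage cells (24 listed, 21 in the table, 15 tested) had a median log2(RPKM + 1) difference of 0.33 for P1 against P0 and -0.10 for P2 against P0, and in limma 0 of them passed the adjusted or the unadjusted p in either. Without P2 of tumor 1 the latter median was 0.16. *Runx2*, a factor of hypertrophic cartilage and bone, was at 1.33 and 1.07 RPKM in bulk cells, 3.65 and 1.76 in P1 and 1.84 and 1.29 in P2.

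Signals that act on *Sox9* and cartilage had no common direction. Of 32 listed genes 19 were tested, with 6 higher and 4 lower in P1 than in P0 in both tumors and a median difference of 0.13, close to the 0.12 of all tested genes, and 0 passed the unadjusted p of limma. *Gdf5*, a growth factor of joints, was at 10.4 and 5.49 RPKM in bulk cells, 2.32 and 1.72 in P1 and 6.36 and 2.02 in P2, lowest in P1 of each tumor. *Fgf9*, a growth factor that keeps *Sox9* active in the embryonic mouse testis, was at 7.24 and 0.199 RPKM in bulk cells, 8.13 and 2.57 in P1 and 0 and 2.07 in P2.

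Of 7 tested receptors for fibrillar collagen 0 passed the unadjusted p of limma in P1 against P0 or P2 against P0, with medians of 0.14 (0.37 without P0 of tumor 2) and 0.10. *Mrc2*, a receptor that takes up collagen, had the largest difference for P2 against P0 of those with 1 direction in both tumors (1.32 on the log2(RPKM + 1) scale), at 0 and 0.372 RPKM in bulk cells, 0.890 and 1.30 in P1 and 1.06 and 3.18 in P2. *Itga1*, which also pairs with CD29 to bind collagen, differed by 0.85 between P1 and P0, at 0 and 0.0859 RPKM in bulk cells and 0.721 and 1.05 in P1. Both were less abundant than *Itga2* and *Ddr1*. *Itga2*, another partner of CD29, was at 54.5 and 31.2 RPKM in bulk cells, 36.5 and 22.7 in P1 and 43.4 and 30.6 in P2, and *Ddr1*, a collagen receptor kinase of epithelium, lay between 23.7 and 35.9 RPKM.

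Of 26 tested genes for enzymes and helpers that modify and secrete procollagen, 10 were higher and 1 lower in P1 than in P0 in both tumors, with a median of 0.38 (0.24 without P1 of tumor 2) and 0 past the unadjusted p in limma. In P2, 13 were higher and 2 lower than in P0 in both tumors, with a median of 0.22 (0.15 without P2 of tumor 2 and 0.60 without P2 of tumor 1). *Plod1*, a lysyl hydroxylase of procollagen, was at 7.69 and 11.5 RPKM in bulk cells, 15.9 and 22.0 in P1 and 11.8 and 16.2 in P2. At the unadjusted p, 4 genes of this list had higher and 1 had lower levels in P2 than in P0, against 3.91% of all genes. The higher ones were *Pcolce*, *Loxl3*, *Serpinh1* and *Fkbp10*, and the lower one was *P3h3* (listed as *Leprel2*), a family member of the prolyl 3-hydroxylases. *Pcolce*, an enhancer of procollagen cleavage, was at 0 and 0.10 RPKM in bulk cells, 0 and 1.29 in P1 and 4.37 and 9.14 in P2. *Serpinh1*, the collagen chaperone HSP47, was at 45.4 and 26.7 RPKM in bulk cells, 44.9 and 50.3 in P1 and 78.3 and 63.3 in P2. These enzymes also act on type I and type III procollagen, whose genes were highest in P2 while *Col2a1* was lowest there.

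Genes for type I and type III collagen had another order than *Col2a1*. *Col1a1* was at 0.929 and 2.70 RPKM in bulk cells, 1.78 and 26.8 in P1 and 10.3 and 162 in P2, with P2 highest in each tumor. *Col1a2* and *Col3a1*, which were also highest in P2 of each tumor, reached 150 and 67.8 RPKM in P2 of tumor 2. The summed level of 10 fibroblast markers was 1.68 and 6.53 RPKM in bulk cells, 8.11 and 88.2 in P1 and 74.8 and 425 in P2, while that of 11 basal and myoepithelial markers was 309 and 358 in bulk cells, 920 and 993 in P1 and 674 and 458 in P2. The basal marker sum was thus highest in P1 of each tumor, as *Col2a1*, *Col9a1* and *Col9a2* were. The fibroblast marker sum was highest in P2, where *Col2a1* was lowest. Single markers did not all follow their sum. Of 9 tested basal markers 7 were higher in P1 than in P2 in both tumors, and of 8 tested fibroblast markers 5 were lower. In tumor 1 *Krt14* was at 456 RPKM in P1 and 471 in P2. Of 8 Schwann cell and neural crest markers in the table the sum ran from 63.1 to 106 RPKM, mostly from *Sox10*. The part of such cells in the levels of the 4 genes was not tested.

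Genes of cartilage matrix breakdown had positive median differences from P0 in both stem cell populations. Of 9 tested genes 7 were higher in P2 than in P0 in both tumors, with a median difference of 1.47 and 3 past the unadjusted p of limma (*Mmp13*, *Mmp3* and *Ctsk*), against 3.91% of all genes. In P1 6 were higher in both tumors, with a median of 0.65 and 2 past it (*Mmp13* and *Timp3*), against 1.89% of all genes. The median was 0.82 for P2 without P2 of tumor 1 and 0.15 for P1 without P0 of tumor 2. *Mmp13*, the collagenase that cuts type II collagen, was at 0.0207 and 2.63 RPKM in bulk cells, 10.6 and 4.21 in P1 and 8.28 and 13.1 in P2. *Timp3*, an inhibitor of such proteases that is bound to matrix, was at 14.9 and 28.6 RPKM in bulk cells, 62.6 and 47.9 in P1 and 43.1 and 27.1 in P2. The glycosaminoglycan synthesis genes of cartilage proteoglycan (13 tested) had median differences from P0 of 0.52 in P1 and -0.18 in P2 (0.09 without P0 of tumor 2). Of these *Has2*, a hyaluronan synthase, was the 1 gene past the unadjusted p in P1 against P0 (1.89% of all genes), at 2.06 and 1.26 RPKM in bulk cells, 8.92 and 4.32 in P1 and 4.78 and 4.43 in P2.

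Mammary stem and progenitor genes linked with *Sox9* had a positive median difference between P1 and P0, where the *Sox9* difference was 0.07. Of 19 tested genes 9 were higher and 1 lower in P1 in both tumors, with a median difference of 0.53 (0.13 without P1 of tumor 1), and by limma 0 passed the adjusted p and 5 the unadjusted p, all higher, against 1.89% of all genes. These were *Snai2* and the basal keratin genes *Krt5*, *Krt14*, *Krt15* and *Krt17*. Of these *Krt5*, *Krt14* and *Krt17* are also among the basal and myoepithelial markers above. A link of the listed genes to *Sox9* in these cells was not tested. *Snai2*, which encodes the transcription factor Slug, was at 0.0961 and 2.28 RPKM in bulk cells, 13.3 and 4.19 in P1 and 0.0209 and 2.95 in P2, highest in P1 of each tumor. In P2 against P0, 1 of the 19, *Aldh1a3*, passed the unadjusted p, against 3.91% of all genes, and the median of the list was 0.26 (0.12 without P2 of tumor 2).

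The tested genes whose pattern over the 6 libraries was most like that of each gene, by Pearson's r on log2(RPKM + 1), differed from 1 of the 4 to the next. For *Col2a1* they were *Pole4* (r = 0.99), a subunit of a DNA polymerase, *Zfp746*, *Slc7a2*, *Nelfa* and *Foxc1* (r = 0.98), of which *Foxc1* encodes a transcription factor that was at 20.4 and 17.6 RPKM in bulk cells and 29.2 and 22.5 in P1, with P2 below P0 in each tumor. For *Col9a1* they were *Btg1* (r = 0.99), which restrains cell growth, *Cdk9*, a kinase of transcription, *Abca1*, *St6galnac4* and *Clk3*. For *Col9a2* the likeness was somewhat lower, with *Plod1* first (r = 0.97), then *5730559C18Rik*, *Bend4*, *Dnttip1* and *Aplp2* (r = 0.95). For *Sox9* they were *Abhd2* (r = 0.99), *Pgap3*, *Tiam1*, *Cyth1* and *Cmip*. With 6 libraries and 12512 genes to choose from, these values describe the likeness and nothing more.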

How the data were processed

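RNA of 6 libraries (3 sorted populations of 2 tumors) was analysed. From poly(A) RNA the authors made libraries (PrepX kit), which were read on a HiSeq machine, and they deposited RPKM per gene and library. The genome build, annotation and counting tool are not given in the sources used here. The deposited group means of P0 and P1, a signal of reads divided by a size factor, were used only to recover gene lengths. The deposited fold changes and p-values of P1 against P0 were not used. Whole reads, within 0.01, were recovered for 14896 of 14897 genes.

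Genes with a symbol and at least 1 RPKM in at least 2 libraries (12512) were compared on the log2(RPKM + 1) scale in 1 model of all 6 libraries (limma 3.58.1 with its trend option, R 4.3.3) with Benjamini-Hochberg adjustment. The design had set a count test for counts and limma for RPKM, and the table held RPKM. The labels put the 3 populations of a number in 1 tumor, and deviations from the group means correlated between populations at 0.19 to 0.24, so the tumor served as a replicate block in an alternative. Other alternatives were a pseudocount of 0.1, no filter, upper quartile scaling, voom on recovered reads and leaving out each library. The procedure was tested on simulated data in which every gene had the same spread and the tumors did not differ. Those data are simpler than these libraries, so they do not show how the fit behaves here. Folds were taken within a tumor, with 95% counting intervals, and a count of 0 was set at 3 reads. The genes and lists were chosen with earlier results of these data known. Named are the 4 genes, a fixed set of collagen and *Sox* genes, and from each list up to 3 tested genes with the largest difference of 1 direction in both tumors against P0. Named outside this rule, after their values were seen, are *Serpinh1*, *Fkbp10*, *Ctsk*, *Krt14*, *Krt17*, *Ddr1*, *Krt8*, *Col14a1*, *Itgb1* and *Itgb3*. Tables and figures were written in Python 3.11.15 with pandas 2.3.3, numpy 2.4.6, matplotlib 3.10.9 and scipy 1.17.1.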

Additional observations from a re-analysis of the deposited data

Results flagged for a closer look

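*Sox9* was lower in P1 than in P0 of tumor 1, by -0.0872 on the log2(RPKM + 1) scale, and higher in P1 than in P0 of tumor 2, by 0.2217. The tumors thus went opposite ways. With 1 library per population and tumor this difference between the tumors was not tested.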

How the results depend on the processing

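At an adjusted p of 0.05 limma called 0 genes in each comparison. With the tumor as a replicate block it called 3 in P2 against P0 and 0 in both others, and with a pseudocount of 0.1 it called 2 in P2 against P0. Limma voom on recovered reads called 9 genes in P1 against P0, 1 in P2 against P0 and 7 in P1 against P2. With each library left out in turn, the counts ran from 0 to 0 for P1 against P0, from 0 to 40 for P2 against P0 and from 0 to 55 for P1 against P2. The 40 and the 55 came without P2 of tumor 2, and 1 gene was called in P2 against P0 without P0 of tumor 2. The cause was not tested.

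*Col2a1* and *Col9a2* kept the sign of their log2 differences in all 3 comparisons under 9 of 9 alternatives, as *Col9a1* did for P1 against P0. With 0.1 as the pseudocount the *Col2a1* difference was -3.02 for P2 against P0, and with voom it was -5.92. Leaving out 1 library took *Col9a1* in P2 against P0 from -0.19 (without P0 of tumor 1) to 0.69 (without P0 of tumor 2), and *Sox9* in P1 against P0 from -0.18 (without P1 of tumor 2) to 0.32 (without P1 of tumor 1). Such means compare populations partly across the tumors. Of 48 list medians 30 kept their sign under 8 of 8 alternatives and 18 did not. The *Col2a1* values of P2 rest on 0 and 41 reads.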
